A study of Homo sapiens with 10 samples.

Results

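The small nucleolar RNA (snoRNA) host genes described here are the 10 lncRNA genes SNHG1, SNHG5, SNHG6, SNHG8, SNHG12, SNHG15, SNHG16, GAS5, ZFAS1 and DANCR, selected by symbol from the 59386 genes of the count tables. RNA was measured in VCaP, an established epithelial prostate cancer cell line, in which SMARCA4 or SMARCA1 had been depleted with siRNAs; the comparison addressed what each of these chromatin remodelers does to expression in the same cells. SMARCA4 is an ATPase of the SWI/SNF complexes and SMARCA1 an ATPase of the ISWI complexes. Each knockdown was made with 2 different siRNAs, named A and B for SMARCA4 and A and C for SMARCA1, with 2 libraries per siRNA, and 2 libraries came from control cells labelled as wild type. Knockdown cells received 30 pmol siRNA by lipid transfection and were harvested after 72 h. Whether the control cells were transfected, or received any siRNA, is not given in the sources used here, so knockdown and transfection cannot be told apart in a comparison with control. The comparison of SMARCA4 with SMARCA1 knockdown sets transfected cells against transfected cells. All cells were of 1 line, and the replicates are not stated to be separate cultures, so the p-values measure the spread between libraries, which may be technical.

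Most snoRNAs of human cells are cut from the introns of longer host transcripts. They guide chemical modification of ribosomal RNA, box C/D snoRNAs directing 2′-O-methylation and box H/ACA snoRNAs directing pseudouridylation, and some host genes make little protein or none, so that the intron is the known product of the gene. The spliced exons of many such hosts begin with a pyrimidine tract of the kind found on ribosomal protein mRNAs, the 5′ terminal oligopyrimidine (5′TOP) motif, and several are cleared by nonsense-mediated decay when they are translated. These libraries were made from polyadenylated RNA and therefore report the host transcripts, not the snoRNAs: the 448 snoRNA symbols of the tables together took between 0.00135% and 0.00246% of the counts of a library.

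By the snoRNAs annotated inside them, SNHG1, SNHG5, SNHG6, SNHG16 and ZFAS1 are hosts of box C/D snoRNAs, SNHG8, SNHG15 and DANCR of box H/ACA snoRNAs, and SNHG12 holds both kinds. GAS5 is placed with the box C/D hosts as background knowledge. In the counted gene models (GRCh38), which merge the exons of all transcripts, SNHG1 lies at chr11:62851984-62855953, SNHG5 at chr6:85650491-85678932, SNHG12 at chr1:28578538-28583132, SNHG15 at chr7:44983023-44986961 and GAS5 at chr1:173858559-173868882, all on the minus strand like SNHG6. SNHG8 at chr4:118278709-118285316, SNHG16 at chr17:76557764-76565348 and ZFAS1 at chr20:49278178-49299600 lie on the plus strand, as does DANCR. Because the exons are merged, most of the annotated snoRNA positions fall inside counted exons, and intron-retaining transcripts count together with spliced ones. The RefSeq promoter table, on GRCh38.p14, held 8 of the 10 genes, all but SNHG6 and SNHG15. The 70 bases around the RefSeq start of 6 of them are shown because each carries a pyrimidine run at the start, and 4 of them also TATAA before it, features that the choice of genes did not use. The first 40 bases lie before the start and the other 30 begin with it, and capitals mark the sequence TATAA before the start and the run of 6 or more C or T that begins nearest to it.
SNHG5 (chr6:85678704-85678773, minus strand): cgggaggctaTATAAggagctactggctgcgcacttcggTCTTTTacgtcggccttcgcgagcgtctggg
SNHG8 (chr4:118278722-118278791, plus strand): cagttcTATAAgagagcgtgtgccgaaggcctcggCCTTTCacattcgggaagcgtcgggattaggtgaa
SNHG12 (chr1:28581844-28581913, minus strand): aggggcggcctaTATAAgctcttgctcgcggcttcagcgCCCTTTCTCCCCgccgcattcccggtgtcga
ZFAS1 (chr20:49278602-49278671, plus strand): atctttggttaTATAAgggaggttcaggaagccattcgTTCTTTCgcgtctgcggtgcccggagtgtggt
SNHG16 (chr17:76557724-76557793, plus strand): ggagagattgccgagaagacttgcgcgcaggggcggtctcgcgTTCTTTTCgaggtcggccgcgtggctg
SNHG1 (chr11:62855856-62855925, minus strand): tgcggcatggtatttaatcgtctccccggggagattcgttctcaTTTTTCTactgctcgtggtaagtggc
TATAA, read on the gene's strand and lying wholly 16 to 40 bases before the start, was present in SNHG5, SNHG8, SNHG12 and ZFAS1, that is in 4 of 8 promoters, against 3.91% of the 35116 promoters of the table. A run of 6 or more C or T beginning within 5 bases of the start was present in 6 of 8, SNHG1, SNHG5, SNHG8, SNHG12, SNHG16 and ZFAS1, against 13.2% of all promoters. This form of the tract was chosen after values were seen. A looser form, a C followed by 5 pyrimidines within 25 bases of the start, was present in 5 of 8, SNHG1, SNHG8, SNHG12, SNHG16 and DANCR, against 36.4% of all promoters. The run in SNHG12 was 12 bases long, whereas the nearest one in DANCR began 14 bases after the start. The RefSeq start of GAS5 lies 163 bases outside its counted model and may not be the start of the counted transcripts, and GAS5 held neither TATAA nor either pyrimidine form there. In the genes shown the RefSeq start lies inside the counted model. It was 1259 bases from the first counted base in SNHG12, 464 in ZFAS1 and 199 in SNHG5, so these starts too may not be those of the counted transcripts. CACGTG, the palindromic E-box that MYC and related factors can bind, was in none of the 8 promoters (7.26% of all), and a core form of the interferon-stimulated response element (a pair of GAAA separated by any 2 bases), searched on both strands, was also in none (3.57% of all). These windows run from 250 bases before the start to 50 bases from it, and a missing match says only that these letters are not there.

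All 10 genes were among the 16899 that passed the filter on low counts. The control libraries held them over a wide range of levels. Per kilobase of counted exon, the mean of the 2 control libraries was highest for SNHG6, at 59.4 FPKM (counts per kilobase, scaled to library size with TMM factors), followed by GAS5 (31.2), SNHG16 (24.7), SNHG8 (13.0), SNHG1 (12.03), DANCR (9.50), SNHG15 (8.92), ZFAS1 (2.38), SNHG12 (1.70) and SNHG5 (0.282). The ranges of the 2 control libraries did not overlap between any neighbours in this order, although SNHG8 and SNHG1 came close, with 12.6 as the lower value of SNHG8 and 12.5 as the higher value of SNHG1. SNHG5 was covered by only 22 to 106 counts per library and SNHG12 by 74 to 203, against 193 to 3860 for the other 8, so their values carry the largest counting error. The counted models of SNHG1, SNHG8 and SNHG15 are a single block without introns, and a read from a spliced or from an unspliced transcript counts the same there.

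In SMARCA4 knockdown every one of the 10 host genes was lower than in control (edgeR's quasi-likelihood test with Benjamini-Hochberg adjustment over all genes tested), where 22.3% of the 16899 genes tested were lower, 22.8% higher and 45.1% changed in either direction. The median log2 fold change of the 10 was −1.23, against 0.00 over all genes tested. In SMARCA1 knockdown 7 of the 10 were lower, where 23% of all genes were lower, 23.8% higher and 46.8% changed in either direction, and the median was −0.75 against −0.00. SNHG6, SNHG15 and ZFAS1 were the 3 that did not pass the test there. The 2 knockdowns were set against the same 2 control libraries, so their values are not independent of each other. In bulk RNA such as this, fewer cells that make a transcript and less of it in each cell cannot be told apart.

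**Figure D1:**
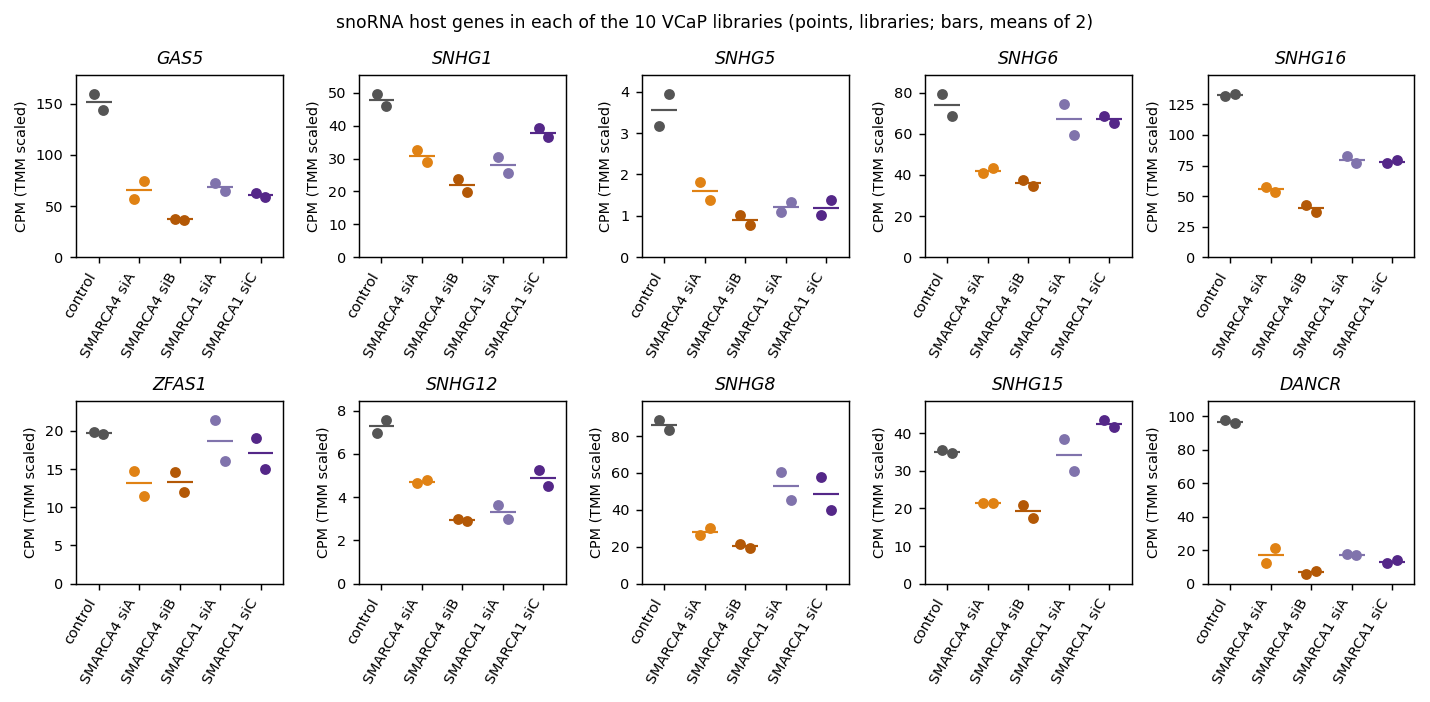
Level of each of the 10 host genes in each of the 10 libraries, in CPM after TMM scaling (vertical axes, from 0); points are libraries and bars the mean of 2. The control points lie above all 4 SMARCA4 points in every panel, whereas SNHG6, SNHG15 and ZFAS1 overlap between control and SMARCA1 knockdown. The share of all genes tested that separate in the same way was not counted, and the tests used these same libraries.

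DANCR, host of the box H/ACA snoRNA SNORA26 and named for opposing differentiation of progenitor cells, fell most. It stood at 97.5 and 95.9 CPM (normalised read count relative to library size) in the control libraries. The SMARCA4 siRNA A libraries had 12.5 and 21.2 CPM and the siRNA B libraries 5.97 and 7.54. The SMARCA1 siRNA A libraries had 17.5 and 17.2 CPM and the siRNA C libraries 12.1 and 14.0. All 8 knockdown libraries were far below both controls, and the SMARCA4 and SMARCA1 libraries overlapped. The mean was 12.2% of the control mean in SMARCA4 knockdown (log2 fold change −3.18, SE 0.18, edgeR adjusted p = 2.7e-06) and 15.7% in SMARCA1 knockdown (−2.68, SE 0.17, adjusted p = 6.5e-06). The counted model of DANCR lies at chr4:52712325-52723623 on the plus strand in 3 exon blocks.

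GAS5, a box C/D host first isolated from growth-arrested cells and a textbook case of a 5′TOP transcript cleared by nonsense-mediated decay, was at 159.2 and 143.4 CPM in control. The SMARCA4 libraries had 56.9 and 74.4 CPM (siRNA A) and 37.7 and 36.9 CPM (siRNA B), and the SMARCA1 libraries 72.6 and 65.2 CPM (siRNA A) and 63.2 and 59.0 CPM (siRNA C). Every knockdown library was under both controls, and the siRNA B libraries of SMARCA4 were the lowest of all. The log2 fold change was −1.61 (SE 0.12, edgeR adjusted p = 9.0e-06) in SMARCA4 knockdown and −1.22 (SE 0.12, adjusted p = 5.9e-05) in SMARCA1 knockdown.

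SNHG16, which holds the 3 snoRNAs of the SNORD1 family, separated the 3 conditions. It was at 131.5 and 133.3 CPM in control, between 76.9 and 82.7 in the 4 SMARCA1 libraries and between 37.3 and 57.7 in the 4 SMARCA4 libraries and no condition overlapped another. The log2 fold change was −1.49 (SE 0.09, edgeR adjusted p = 3.9e-06) for SMARCA4 and −0.75 (SE 0.09, adjusted p = 0.00020) for SMARCA1. SNHG8, host of the H/ACA snoRNA SNORA24, was ordered the same way. It stood at 88.4 and 83.4 CPM in control, at 60.4, 45.3, 57.5 and 39.7 in the SMARCA1 libraries, and at 26.4, 30.0, 21.6 and 19.3 in the SMARCA4 libraries. Its log2 fold change was −1.84 (SE 0.16, adjusted p = 2.1e-05) and −0.76 (SE 0.16, adjusted p = 0.0033), and the 3 conditions again did not overlap.

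SNHG6 and SNHG15 were lower only where SMARCA4 was depleted, and the difference between the knockdowns was itself called for both. SNHG6, host of SNORD87, was at 79.2 and 68.8 CPM in control and at 74.4, 59.5, 68.9 and 65.1 in the SMARCA1 libraries, which overlapped the controls. In the SMARCA4 libraries it was at 40.8, 43.4, 37.5 and 34.8 CPM, below every other library. SNHG6 changed by −0.92 in SMARCA4 knockdown (log2, SE 0.11, edgeR adjusted p = 0.00015) and by −0.14 in SMARCA1 knockdown (adjusted p = 0.32, 95% interval −0.40 to 0.11), and the difference between the 2 was −0.78 (SE 0.09, adjusted p = 0.00030). SNHG15, host of SNORA9, was at 35.5 and 34.8 CPM in control, at 38.5, 30.1, 43.4 and 41.6 in the SMARCA1 libraries and at 21.5, 21.4, 21.0 and 17.5 in the SMARCA4 libraries. The SMARCA1 libraries lay on both sides of the controls and the SMARCA4 libraries below them all. The log2 fold change of SNHG15 was −0.79 (SE 0.12, adjusted p = 0.00056) with SMARCA4 and 0.12 (adjusted p = 0.45, 95% interval −0.15 to 0.39) with SMARCA1, and the difference was −0.91 (SE 0.10, adjusted p = 0.00021).

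SNHG1, which holds the box C/D snoRNAs SNORD22, SNORD25 to SNORD28 and SNORD30, changed less. Its control libraries were at 49.6 and 45.9 CPM, the SMARCA4 libraries at 32.7, 29.05, 23.9 and 19.9, and the SMARCA1 libraries at 30.5, 25.7, 39.3 and 36.5. All knockdown libraries were under the controls and the 2 knockdowns overlapped. The log2 fold change was −0.88 (SE 0.12, edgeR adjusted p = 0.00024) and −0.55 (SE 0.12, adjusted p = 0.0038). The SMARCA1 call was lost without control replicate 1 (adjusted p = 0.057) and with siRNA C alone (log2 fold change −0.33, adjusted p = 0.070).

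SNHG12 and SNHG5, the hosts at the lowest level, fell about equally in both knockdowns. SNHG12 was at 6.98 and 7.54 CPM in control, between 2.91 and 4.78 in the SMARCA4 libraries and between 3.01 and 5.25 in the SMARCA1 libraries, with log2 fold changes of −0.96 (SE 0.14, edgeR adjusted p = 0.00048) and −0.85 (SE 0.14, adjusted p = 0.0011). SNHG5, host of SNORD50B, was at 3.18 and 3.94 CPM in control, between 0.772 and 1.82 in the SMARCA4 libraries and between 1.02 and 1.38 in the SMARCA1 libraries, with log2 fold changes of −1.57 (SE 0.22, adjusted p = 0.00037) and −1.56 (SE 0.22, adjusted p = 0.00046). Neither gene overlapped the controls in any knockdown library. The difference between the knockdowns was −0.12 for SNHG12 (95% interval −0.39 to 0.16) and −0.01 for SNHG5 (95% interval −0.46 to 0.44), intervals that leave room for a moderate difference in either gene.

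ZFAS1, host of the SNORD12 family and named for its place opposite the promoter of ZNFX1, had the smallest change of the 10 in SMARCA4 knockdown. The controls had 19.9 and 19.7 CPM, with ZFAS1 at 14.8, 11.5, 14.7 and 12.03 in the SMARCA4 libraries and at 21.4, 16.1, 19.1 and 15.05 in the SMARCA1 libraries. The SMARCA4 libraries lay below all others, while 1 SMARCA1 library lay above both controls. The log2 fold change was −0.58 (SE 0.16, edgeR adjusted p = 0.016) with SMARCA4 and −0.15 (adjusted p = 0.49, 95% interval −0.51 to 0.22) with SMARCA1. The SMARCA4 call was lost without SMARCA4 siRNA A replicate 2 (adjusted p = 0.055), without siRNA B replicate 2 (0.058), and without control replicate 1 (0.11) or 2 (0.095), which leaves 9 of the 10 genes called.

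**Figure D2:**
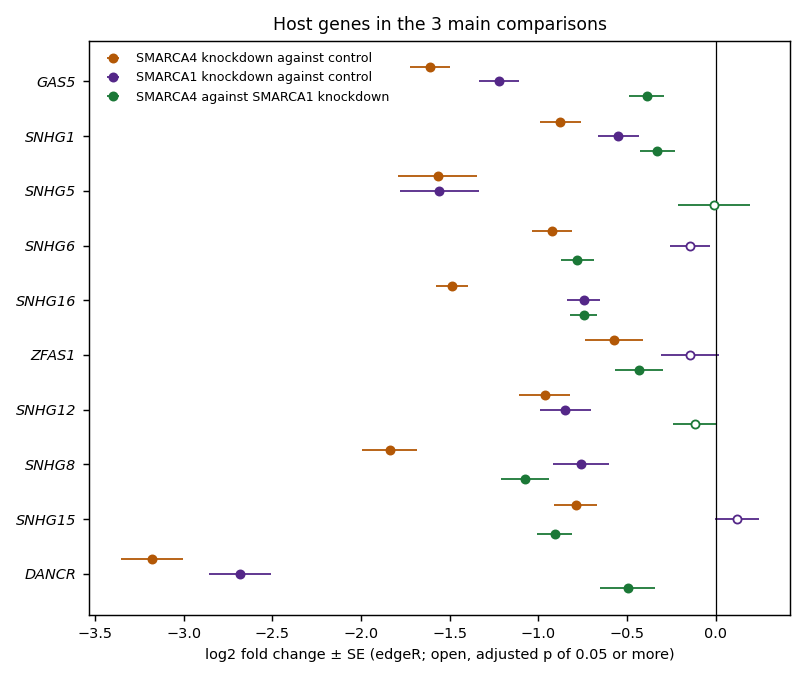
Log2 fold change ± SE of each host gene (horizontal axis) in SMARCA4 knockdown against control, SMARCA1 knockdown against control, and SMARCA4 against SMARCA1 knockdown; filled points have an adjusted p below 0.05. The SMARCA4 points lie between −3.18 and −0.58, and the open SMARCA1 points are SNHG6, ZFAS1 and SNHG15.

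Set directly against SMARCA1 knockdown, SMARCA4 knockdown had lower levels of 8 of the 10 host genes, where 19.1% of all genes were lower and 35.4% changed in either direction. The median log2 difference of the 10 was −0.46, against −0.01 over all genes tested. SNHG8 differed most (−1.08, SE 0.14, edgeR adjusted p = 0.00037), followed by SNHG15 and SNHG6 and by SNHG16 (−0.74, SE 0.08, adjusted p = 0.00016). These 4 genes kept their call in each of the 18 alternative fits, 10 of which left out 1 library. The other 4 were smaller and less firm: DANCR differed by −0.50 (SE 0.16, adjusted p = 0.032), ZFAS1 by −0.43 (SE 0.14, adjusted p = 0.033), GAS5 by −0.39 (SE 0.10, adjusted p = 0.012) and SNHG1 by −0.33 (SE 0.10, adjusted p = 0.025). Without SMARCA1 siRNA C replicate 1 none of these 4 was called and the count was 4, and without SMARCA4 siRNA B replicate 2 the count was 5. DANCR was also lost without SMARCA1 siRNA A replicate 1, siRNA C replicate 2, SMARCA4 siRNA A replicate 1, siRNA B replicate 1 or either control (adjusted p up to 0.12). ZFAS1 was lost without SMARCA1 siRNA A replicate 1, SMARCA4 siRNA A replicate 2, siRNA B replicate 2 or either control (up to 0.14), SNHG1 without SMARCA1 siRNA C replicate 2, SMARCA4 siRNA A replicate 2 or siRNA B replicate 2 (up to 0.12), and GAS5 without SMARCA4 siRNA B replicate 2 (0.053). With the controls left out of the fit DANCR and ZFAS1 were lost (adjusted p = 0.062 and 0.055).

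The 2 siRNAs to SMARCA4 lowered the same 10 genes by different amounts. Each alone gave a lower level of all 10 genes than control, where 15.8% of all genes were lower and 33.2% changed in either direction with siRNA A, and 21.9% were lower and 45% changed with siRNA B. Between the 2 siRNAs, 4 of the 10 were lower with B than with A, where 3.04% of all genes were lower, 3.17% higher and 6.2% differed in either direction. DANCR differed by −1.32 (log2, SE 0.22, edgeR adjusted p = 0.014), GAS5 by −0.82 (SE 0.14, adjusted p = 0.015), SNHG12 by −0.68 (SE 0.17, adjusted p = 0.048) and SNHG16 by −0.48 (SE 0.11, adjusted p = 0.032). In all 4 genes both B libraries lay below both A libraries, which adds no support, since the test that picked them used the same libraries. These calls were fragile: they were lost without SMARCA4 siRNA A replicate 2, siRNA B replicate 1 or siRNA B replicate 2, which leaves 1 library of a siRNA. SNHG12 was lost in 14 of the 18 alternative fits, SNHG16 in 9, and DANCR and GAS5 in 4 each. The losses of SNHG12 and SNHG16 included fits without a control or a SMARCA1 siRNA C library. The SMARCA4 transcript had 25.2 and 23.2 CPM in the siRNA A libraries and 18.6 and 13.3 CPM in the siRNA B libraries. Other states differed too: MYC was lower with B (log2 difference −1.48). The summed level of 30 interferon response genes was 34059 and 16841 CPM with A and 44923 and 37984 CPM with B. The part of any of these in the host genes was not tested.

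The 2 siRNAs to SMARCA1 were closer to each other. With siRNA A 7 host genes were lower than in control and with siRNA C 6, where 16.3% and 21.5% of all genes were lower and 34.8% and 45.3% changed in either direction (23.8% higher with C), SNHG1 being the gene called with A and not with C. Between the 2 siRNAs no host gene was called by edgeR, and only 0.0118% of all genes were. The largest differences were those of SNHG12 (log2 difference 0.55, 95% interval 0.16 to 0.94) and SNHG1 (0.43, 95% interval 0.13 to 0.74), each at a higher level with C.

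**Figure D3:**
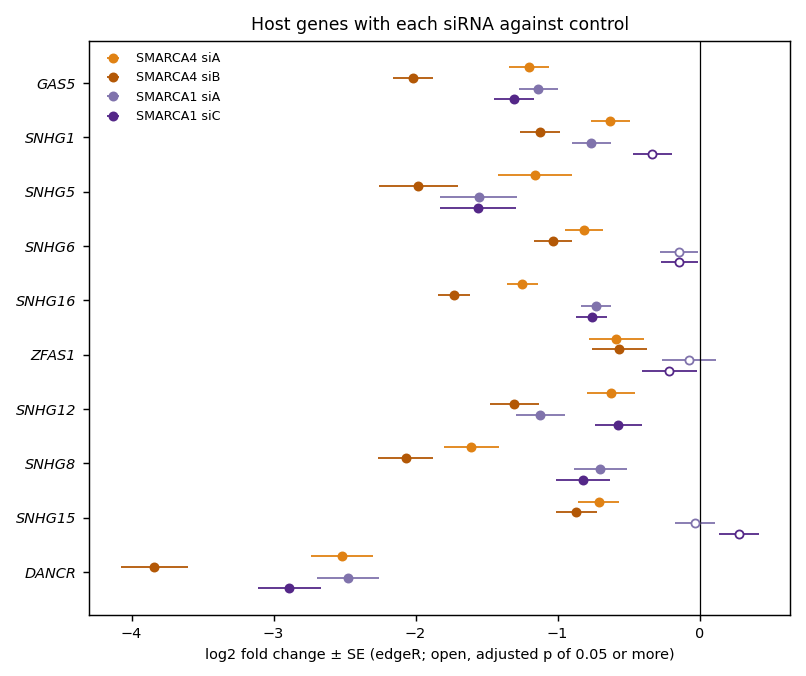
Log2 fold change ± SE of each host gene against control (horizontal axis) for each of the 4 siRNAs; filled points have an adjusted p below 0.05. With SMARCA4 siRNA B, DANCR lies at −3.84 and GAS5 at −2.02, the lowest points of those genes.

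The host genes varied together across the 10 libraries to different degrees. The Pearson correlation of log2 CPM between a pair of them ran from 0.31 for SNHG5 with SNHG15 to 0.98 for GAS5 with DANCR. These values describe 10 libraries that fall into 5 groups of different level, so that libraries of 1 group are not independent points. SNHG6 and SNHG15, which were lower only with SMARCA4, had r = 0.94. Their shared pattern was read from these same libraries, so this value is no separate evidence that they belong together. SNHG8, which was lower with SMARCA4 and with SMARCA1, had r = 0.95 with SNHG6 and r = 0.83 with SNHG15. Genes were also ranked by how closely their log2 CPM followed the mean of the 10. Genes of the lists used here, such as ribosomal protein genes, were left out. Among other genes at a mean of at least 1 CPM, the closest were EXOSC2 (r = 0.992), a subunit of the RNA exosome, and FARSB (0.991), a phenylalanyl-tRNA synthetase subunit. VDAC2 (0.987), KISS1R (0.984) and FKBP4 (0.984) followed.

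Other lncRNA hosts showed a similar shift. Of a list of 23 further lncRNA host genes 17 were tested, 12 of which were lower and none higher in SMARCA4 knockdown (median log2 fold change −1.22), and 11 were lower and none higher in SMARCA1 knockdown (median −0.75). SNHG26 fell most with SMARCA4 (−2.93) and SNHG14, the long transcript of the Prader-Willi region that holds tandem box C/D clusters, fell most with SMARCA1 (−2.92), from 1238 and 1202 CPM in control to between 122 and 256. Protein-coding hosts outside the ribosomal protein genes had smaller median changes. Among the genes whose GENCODE 44 span holds a named snoRNA on the same strand, a set drawn up after the results were seen, 120 protein-coding hosts outside the ribosomal protein genes were tested, and 48 were lower and 19 higher with SMARCA4 (median −0.22). The corresponding counts with SMARCA1 were 38 lower and 18 higher (median −0.14). By contrast, the 28 ribosomal protein genes that hold a snoRNA were all lower with SMARCA4 (median −1.24), and 27 of 28 were lower with SMARCA1 (median −0.79). In the same annotated set 16 lncRNA hosts outside the 10 were tested. Of these, 10 were lower with SMARCA4 (median −1.09) and 9 with SMARCA1 (median −0.64), and none was higher in either.

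Genes with a 5′TOP start moved with the host genes. All 79 cytosolic ribosomal protein genes tested were lower with SMARCA4 (median −1.19), and 71 of 79 were lower and none higher with SMARCA1 (median −0.75). Of the 17 other 5′TOP genes tested, among them EEF1A1 and PABPC1, 17 were lower with SMARCA4 (median −0.97) and 16 with SMARCA1 (median −0.73). In SMARCA4 against SMARCA1 knockdown 69 of the 79 ribosomal protein genes were lower (median −0.44). The list of regulators of 5′TOP mRNAs showed no such common shift, with 6 of 13 lower and 1 higher with SMARCA4 (median −0.15) and 4 lower and 1 higher with SMARCA1 (median −0.21).

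**Figure D4:**
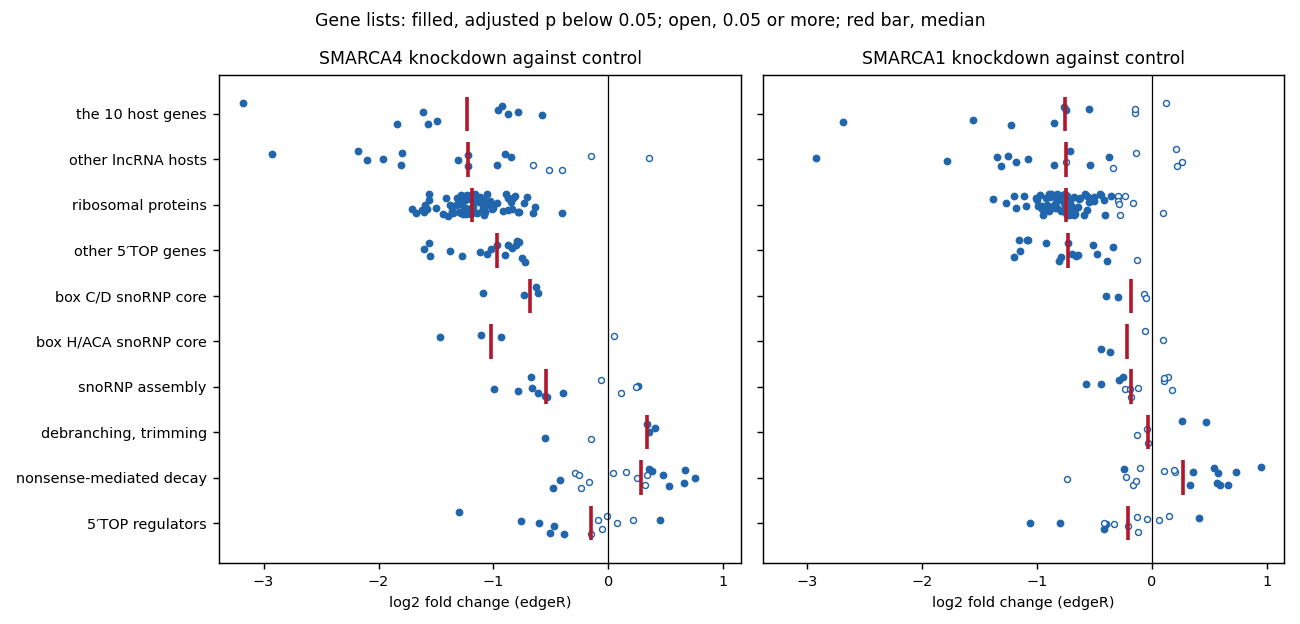
Log2 fold change of each gene tested (horizontal axis) in 10 gene lists, for SMARCA4 (left) and SMARCA1 (right) knockdown against control; filled points have an adjusted p below 0.05, red bars are list medians, and the vertical spread is only to separate points. The medians of the 10 host genes, the other lncRNA hosts and the ribosomal proteins lie between −1.23 and −1.19 on the left and near −0.75 on the right, and that of nonsense-mediated decay lies above 0 in both.

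The proteins that bind snoRNAs were divided between the knockdowns. All 4 core proteins of box C/D particles were lower with SMARCA4 (median −0.68), led by the methyltransferase FBL (−1.09, edgeR adjusted p = 3.3e-05), and all 4 were lower in SMARCA4 than in SMARCA1 knockdown. With SMARCA1, FBL (−0.29, adjusted p = 0.038) and the scaffold NOP56 (−0.40, adjusted p = 0.0086) passed the test. The FBL call was lost in 12 of 20 alternative fits, among them those without either control, either SMARCA1 siRNA C library or any 1 SMARCA4 library. With SMARCA1 siRNA A alone FBL changed by only −0.07 (adjusted p = 0.68), and with siRNA C alone by −0.52 (adjusted p = 0.0062). Of the 4 core proteins of box H/ACA particles, 3 were lower with SMARCA4 (median −1.02), with NHP2 at −1.46 and the pseudouridine synthase DKC1 at −1.11, and 2 with SMARCA1, NHP2 at −0.44 and DKC1 at −0.37. The SMARCA1 calls of NOP56 (adjusted p = 0.056 and 0.095), NHP2 (0.081 and 0.089) and DKC1 (0.071 and 0.080) were each lost without control replicate 1 or 2, and that of NHP2 also with siRNA A alone (0.15). Factors that assemble the particles were lower for 8 of 12 and higher for 1 with SMARCA4 (median −0.54), against 4 lower and none higher with SMARCA1 (median −0.18). Of the 5 enzymes that release and trim snoRNAs from introns, 3 were higher and 1 lower with SMARCA4, and 2 were higher and none lower with SMARCA1.

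Nonsense-mediated decay factors went the other way in part. Of 18 tested, 7 were higher and 2 lower with SMARCA4 (median 0.28), and 9 were higher and 1 lower with SMARCA1 (median 0.27). UPF1, the helicase at the centre of the pathway, stood at 280.9 and 307.0 CPM in control and between 428.2 and 650.7 in the 8 knockdown libraries, with no overlap. Its log2 fold change was 0.76 (edgeR adjusted p = 0.00075) with SMARCA4 and 0.95 (adjusted p = 0.00027) with SMARCA1. MAGOH, a subunit of the exon junction complex, fell most of the list with SMARCA4 (−0.49, adjusted p = 0.0026).

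Genes next to the host genes did not simply follow them. SLC3A2, the heavy chain of amino acid transporters, starts 51 bases from the start of SNHG1 on the opposite strand. It was at 78.7 and 83.4 CPM in control and between 105.4 and 194.5 in the knockdown libraries, and rose by 0.74 (edgeR adjusted p = 0.0081) with SMARCA4 and 1.13 (adjusted p = 0.00098) with SMARCA1 on the log2 scale, where SNHG1 fell. The SMARCA4 call for SLC3A2 was lost without control replicate 1 (adjusted p = 0.064) and with siRNA A alone (0.053). ZNFX1, an RNA helicase induced by interferon, starts 248 bases from ZFAS1 on the opposite strand and was at 69.0 and 67.2 CPM in control and between 341.0 and 975.9 in the knockdown libraries. Its log2 fold change was 3.33 with SMARCA4 and 3.05 with SMARCA1. The counted exons of ZFAS1 and ZNFX1 share 249 bases on opposite strands, and the strand setting of the counting is not given in the sources used here, so reads from those bases cannot be told apart.

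Other neighbours, of GAS5 and DANCR, fell with their host genes. ZBTB37, which starts 800 bases from GAS5 on the opposite strand, changed by −0.97 (edgeR adjusted p = 0.020) and −1.49 (adjusted p = 0.0025), its SMARCA4 call being lost without SMARCA4 siRNA A replicate 1 (adjusted p = 0.064), siRNA B replicate 1 (0.064), control replicate 1 (0.14) or control replicate 2 (0.089), and with siRNA B alone (0.052). ERVMER34-1, an endogenous retroviral envelope gene that overlaps DANCR by 127 bases on the opposite strand, was at 12.6 and 10.96 CPM in control and fell by 1.98 with SMARCA4 and by 0.75 with SMARCA1 on the log2 scale. Reads from the shared bases of DANCR and ERVMER34-1 cannot be told apart either.

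**Figure D5:**
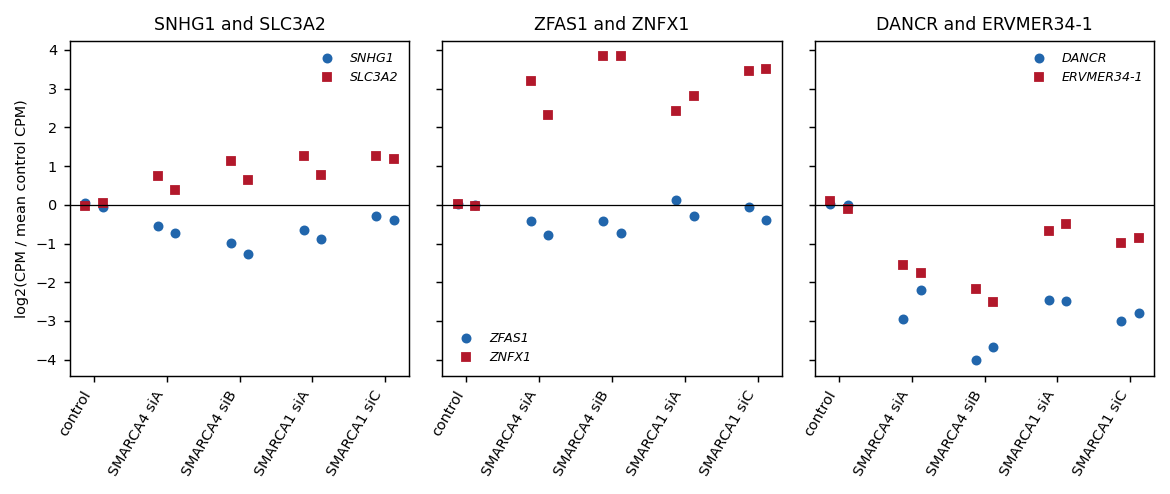
Log2 ratio of CPM to the mean control CPM (vertical axis) in each library for SNHG1, ZFAS1 and DANCR (circles) and a neighbour on the opposite strand (squares), by group. SLC3A2 and ZNFX1 lie above 0 in all 8 knockdown libraries, whereas ERVMER34-1 lies below 0 with DANCR.

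Library totals ran from 23898545 to 34667965 counts. SMARCA4 was at 242.2 and 267.6 CPM in control and between 13.3 and 25.2 in its knockdown (log2 fold change −3.70), and SMARCA1 was at 32.3 and 31.5 CPM in control and between 1.75 and 3.40 in its knockdown (−3.51). SMARCA1 was higher in SMARCA4 knockdown (1.07). Several other states moved with the knockdowns. All 30 genes of an interferon response list were higher in both, their summed level being 376.6 and 384.0 CPM in control and between 16841 and 46676 CPM in the knockdown libraries. Between SMARCA4 and SMARCA1 knockdown 3 of the 30 were higher, 4 lower and 23 not called. MYC, the transcription factor that drives ribosome production genes, was at 318.0 and 328.5 CPM in control, between 25.8 and 102.2 with SMARCA4 and between 164.2 and 188.0 with SMARCA1, with log2 fold changes of −2.51 and −0.89. All 6 proliferation genes were lower with SMARCA4 and 4 of 6 with SMARCA1, and 7 of 10 growth arrest and stress genes were higher in each, GADD45B most (2.67 and 3.01). The part of these states in the fall of the host genes was not tested. Of the 4 epithelial markers 3 were higher in each knockdown (summed level 1688 and 1732 CPM in control, between 2908 and 4365 in the knockdowns), whereas the summed level of 4 leukocyte markers was 1.82 CPM or less in every library, that of 3 endothelial markers 3.16 or less, and that of 4 fibroblast markers between 17.9 and 55.0. The prostate luminal markers were present in all libraries, with a summed level between 5598 and 8289 CPM.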

How the data were processed

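RNA of 10 VCaP libraries (polyadenylated RNA, strand-specific, paired-end) was quantified by the authors, who aligned reads to hg38 and deposited raw counts per gene; the submitters' processing notes name HISAT2 2.1.0 and featureCounts 1.5.2. The counting strand setting and any batch are not given in the sources used here. From the deposited counts, genes were kept with edgeR's filterByExpr (minimum count 10, minimum total 15), scaled by TMM and fitted with edgeR 4.0.16 (R 4.3.3, limma 3.58.1) quasi-likelihood over 5 groups of 2 libraries. A knockdown's coefficient averaged the groups of both its siRNAs. Benjamini-Hochberg adjustment ran over all 16899 genes tested, with a threshold of 0.05. SE is the fold change divided by the root of F, and intervals are 95%. CPM and FPKM use TMM-scaled totals and the deposited gene lengths. DESeq2 1.42.0, other scalings and filters, single siRNAs and leaving out each library were alternatives. In simulated counts 83.4% of 199 genes changed by 1.5 on the log2 scale were recovered in the SMARCA4 comparison. Named genes are all 10 host genes, the extremes of each list, short lists in full, neighbours, and the 5 genes outside the lists most correlated with the mean. The host genes and lists were chosen with earlier results of these data known; the pyrimidine run at the start, the annotated host set and some alternatives were added after values were seen. The result for 1 neighbouring gene is not reported here.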

Additional observations from a re-analysis of the deposited data

Results flagged for a closer look

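Of 20 groups of 4 libraries, 1 per host gene and knockdown, 1 held a library far from the other 3 by Dixon's criterion. That criterion assumes 4 like libraries, whereas each group held 2 siRNAs, and the groups share libraries. The number expected by chance is therefore not known here. SNHG15 was at 17.5 CPM in SMARCA4 siRNA B replicate 2, where the other SMARCA4 libraries were between 21.0 and 21.5.

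The SMARCA4 siRNAs differed for 4 host genes, each lower with siRNA B than with siRNA A, in the fit of all 10 libraries. The log2 differences were −1.32 for DANCR, −0.82 for GAS5, −0.68 for SNHG12 and −0.48 for SNHG16 (edgeR's quasi-likelihood test of the difference itself). None of the 4 was called with only the groups compared. The calls were also lost without SMARCA4 siRNA A replicate 2, siRNA B replicate 1 or siRNA B replicate 2. SNHG12 was lost in 14 and SNHG16 in 9 of the 18 alternative fits, among them fits without a control or a SMARCA1 siRNA C library.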

How the results depend on the processing

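The count of host genes lower than control stayed within 9 to 10 in SMARCA4 knockdown and 6 to 7 in SMARCA1 knockdown when each library was left out. In SMARCA4 against SMARCA1 knockdown it ranged from 4 to 8, and between SMARCA4 siRNAs from 0 to 5. With only the groups compared in the fit it was 6 and 0. The sign turned for SNHG15 in SMARCA1 knockdown with siRNA A alone (−0.036), for SNHG5 in SMARCA4 against SMARCA1 knockdown with library totals alone (0.013) or no filter (0.0094) and when libraries were left out (−0.10 to 0.11), and for ZFAS1 between SMARCA4 siRNAs when libraries were left out (−0.14 to 0.21). The cause was not tested.

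The labels give no shared origin for equal replicate numbers, and the correlations of their deviations ran from −0.10 to 0.36 over 10 pairs of groups. They were over 0.1 in the 3 pairs among SMARCA4 siRNA A, SMARCA4 siRNA B and SMARCA1 siRNA A and not in the other 7, so the numbers were not treated as pairing the samples. With the replicate block 10, 7 and 8 host genes were called in the 3 main comparisons, and 5 between SMARCA4 siRNAs. Over all genes, without control replicate 1 or 2, 4413 or 4913 genes were called with SMARCA4 in place of 7616 and 4430 or 5094 with SMARCA1 in place of 7911. SMARCA4 against SMARCA1 knockdown called 3683 without SMARCA1 siRNA C replicate 1 and 3839 without SMARCA4 siRNA B replicate 2 in place of 5982, and SMARCA4 siRNA B against A called 48 to 2907 with a library left out, 212 with only the groups compared and 2352 with no filter, in place of 1048. The low counts of SNHG5 and SNHG12 limit their precision.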
